A study of Saccharomyces cerevisiae with 8 samples.

Results

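Transcript levels after 60 min of rapamycin were compared with those after 10 min in budding yeast, to see what changed only once the first response to the drug had taken place. The strain in these groups was BY4741, a haploid of mating type a (MATa) with the deletion alleles ura3-delta-0, met15-delta-0, leu2-delta-0 and his3-delta-0. All cultures were in YPD, a rich glucose medium, at 30 °C and an optical density of 0.5. They received 200 ng/mL rapamycin for 10 min (2 libraries) or 60 min (2 libraries), and 2 libraries of untreated cells served as the reference for the first 10 min. The labels call these libraries biological replicates, and they make 6 of the 8 samples of a series about splicing, of which 4 enter the comparison itself. The remaining 2 samples, from other strains at 26 °C, were not used. No untreated culture kept for 60 min is among the samples, so drug exposure and time in culture cannot be told apart. The genes followed were the 6127 of 6569 in the deposited table whose mean scaled signal over the 6 wild-type libraries was at least 1, and 442 lay below that minimum.

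Rapamycin, bound to the small protein Fpr1, inhibits TORC1, the kinase complex that couples growth to nutrients. Active TORC1 promotes the making of ribosomes and holds back nitrogen scavenging, autophagy and stress responses. In yeast the transcripts of ribosome assembly factors and of nitrogen scavenging are known to respond to the drug within minutes.

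The values were scaled signal per gene from strand-specific libraries of poly(A) RNA. Summed over genes, the scaled signal was 3206357 and 3306674 in the untreated libraries, 2753329 and 2855900 at 10 min and 2025663 and 2037245 at 60 min. Replicate libraries correlated across genes at r = 0.994 to 0.996, as a description, since genes are not independent replicates. Read numbers are not known, so no counting interval is given and precision rests on 2 libraries a group. The markers that were checked fitted the labelled strain. Summed signal of the 6 a-specific genes ran from 3297 to 5751 per library and that of the 4 alpha-specific genes from 45.9 to 92.3. The larger part of the alpha-specific signal came from SAG1 (32.0 to 55.6). The deleted genes URA3, LEU2 and MET17 (MET15) reached at most 0, 1.84 and 0.915, and HIS3 was not among the markers checked. Because the summed signal was lower at 60 min, scaling each library to its total instead raised the median change of all genes from 60 against 10 min by 0.46 on the log2 scale. No spike-in is described in the labels, so directions hold relative to the typical gene, and where total-signal scaling turns one, this is said beside it.

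Between 10 and 60 min, 2168 genes rose and 2069 fell in limma's moderated test at an adjusted p under 0.05, which is 35.4% and 33.8% of the genes tested. Under total-signal scaling the split was 3775 to 908. At least 2-fold changes were found in 658 genes that rose (10.7%) and 549 that fell (8.96%). For 3406 genes (55.6%) the change from 10 to 60 min differed from the change in the first 10 min. The second step covers a longer time than the first, so a gene moving at a steady rate can pass this test. A gene was counted as late-only when it changed at least 2-fold after 10 min, had moved by less than 0.5 on the log2 scale (1.41-fold) before, and the difference between its steps passed the test as well. The rule limits the size of the first step and does not show that a change began after 10 min. By that rule 313 genes rose (5.11%) and 239 fell (3.90%) late only. The list counts below are to be read against these shares and the 35.4% and 33.8% above. In every one of the 552 both 60 min libraries lay beyond all other 4 libraries, as they did in 4174 of all 6127 genes tested. This is a description because the rule used these values. Which genes are late only depended on the scaling: with total-signal scaling 637 rose and 198 fell late only, and these included 237 of the 313 and 121 of the 239. A first step under the limit could still pass its own test, as in PAU2, YAT2 and RPL9A (limma adjusted p = 0.00184, 0.00101 and 0.00908). Where the first step had to miss its test instead, 213 rose and 147 fell late only. These included 197 of the 313 and 140 of the 239. The median late-only riser had a scaled signal of 58.8 before the drug, 54.1 at 10 min and 172.8 at 60 min, and the median late-only faller had 636.7, 600.0 and 169.1. Of the remaining genes that changed at least 2-fold, 312 risers and 289 fallers had already moved by 0.5 or more in the first 10 min, and the others did not pass the test of the difference between the steps.

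**Figure D1:**
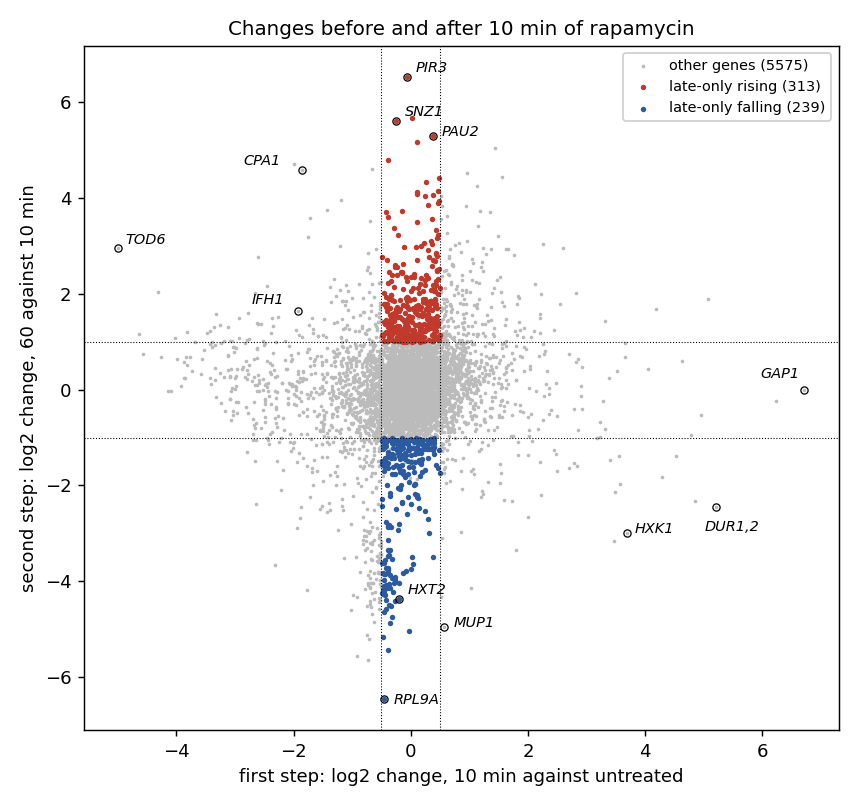
Change of each of the 6127 genes in the first 10 min (x axis, log2, 10 min against untreated) and from 10 to 60 min (y axis, log2). Late-only genes, 313 red and 239 blue, lie between the vertical dotted lines at -0.5 and 0.5 and beyond the horizontal ones at -1 and 1, with PIR3 at the top and RPL9A at the bottom, while GAP1, far to the right, stood near 0 on the y axis.

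Transcripts for the proteins of the cytosolic ribosome made up the deepest falls. Of 137 such genes, 136 fell after 10 min and 0 rose, with a median log2 change of -3.83 against 0.02 for all genes and -0.53 in the first 10 min. Under total-signal scaling 136 fell, 1 rose and the median was -3.36. The large subunit (-3.80, 81 genes) and the small subunit (-3.90, 56 genes) had similar medians, as had the 97 genes with an intron (-3.83) and the 40 without (-3.80). Late-only falls were 53 of the 137, against 3.90% of all genes, and 108 under total-signal scaling. As deposited, of the other 84, 83 had come down by 0.5 or more on the log2 scale in the first 10 min. The exception was RPL15B (0.06), the one member that did not pass, named after its value was seen. RPL9A (chromosome VII, 227754 to 228329), a large-subunit protein gene, gave 10697 and 12494 untreated, 9109 and 7888 at 10 min and 92.8 and 97.6 at 60 min. The 60 min values were far below the other 4, and the late change was -6.46 (SE 0.108, limma adjusted p = 2.21e-08). Its near-identical copy RPL9B gave 1735 and 1410 at 10 min and 303 and 295 at 60 min, a log2 change of -2.38, and how reads shared by copies were counted is not given, so the split within the pair is uncertain.

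RPS3 (chromosome XIV, 302680 to 303402), whose product sits at the small subunit's mRNA entry, gave 11124 and 13575 untreated, 10388 and 8496 at 10 min and 219 and 214 at 60 min, which changed by -5.43 late (SE 0.130, limma adjusted p = 3.72e-08). Further ribosomal protein genes among the 12 largest late-only falls were RPL26B (-5.17), RPS7A (-4.87), RPL24A (-4.74), RPS10A (-4.65), RPP2A of the stalk (-4.58), RPS4A (-4.52), RPL14A (-4.49), RPL2B (-4.41) and RPS31, made as a fusion with ubiquitin (-4.40). In each of them the first step lay between -0.47 and -0.27, so at 10 min these transcripts were within 1.41-fold of their untreated level. For those of these genes that have a paralogue, the split of the signal between the copies is uncertain. The search for copies aligned whole gene spans, introns included, and could miss such pairs, and how reads shared by copies were counted is not given. The one entry of the 12 that is no ribosomal protein gene, the unannotated feature YBR191W-A, begins just past the end of the ribosomal protein gene RPL21A and gave 1340 and 973 at 10 min and 38.0 and 30.1 at 60 min. RPL21A, named after its values were seen, fell from 3503 and 3675 to 130.3 and 145, and whether transcripts of RPL21A that run on give the signal of YBR191W-A was not tested. Over all 137 genes the smallest p was that of RPS18B, which was not late only, with a first step of -0.55 and a late one of -4.43.

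Genes of translation outside the ribosome fell with less depth. Among 40 translation factor genes 35 fell and 2 rose, with a median of -1.03 (-0.56 under total-signal scaling) and 7 late-only falls. STM1, a ribosome-binding protein gene, gave 9202 and 9499 untreated, 7110 and 7234 at 10 min and 802 and 813 at 60 min, a late change of -3.15 (SE 0.0790, limma adjusted p = 4.21e-08). TEF4, for an elongation factor 1 gamma, changed by -2.43 and GCD6, for a subunit of the exchange factor eIF2B, by 0.60. ASC1, an intron-containing gene whose protein sits on the small subunit, led the falls among genes with introns outside the ribosomal proteins, from 5100 and 4227 to 281 and 245. Of those 181 genes 46 rose and 78 fell, with a median of -0.15 that turned to 0.30 under total-signal scaling, where 97 rose and 39 fell. Of 22 tRNA synthetase genes 15 fell and 1 rose (median -0.50, and -0.04 with 9 falls and 7 rises under total-signal scaling), led by FRS2 for phenylalanine (-1.48) and WRS1 for tryptophan (-1.16), with KRS1 for lysine at 0.63. Of 73 mitochondrial ribosomal protein genes 47 fell and 8 rose (median -0.33), but total-signal scaling turned that median to 0.13, with 8 falls and 30 rises, and the largest fall and rise were those of RSM26 (-1.35) and RSM22 (0.77).

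Ribosome assembly genes had done most of their falling before. The 116 genes of that list had a first-step median of -2.57, and from 10 to 60 min 38 rose, 46 fell and the median was -0.12 (0.34 under total-signal scaling, -0.011 without 10 min library 25 and -0.037 without 60 min library 26), with 0 late-only genes in either direction. Members went apart: the helicase gene DBP2 went on from 102 and 121 to 8.42 and 7.25 (log2 change -3.67), GAR1 and NOP56, for proteins of small nucleolar RNA particles, both changed by -2.51, and the helicase gene DBP7 recovered from 14.0 and 12.7 to 36.9 and 34.3 (1.35). Of 20 genes for RNA polymerase I and III subunits 13 fell and 5 rose (median -0.75, -0.28 under total-signal scaling), with RPA43 at -2.10, RPC31 at -1.91 and RET1 at 0.87. GTP synthesis, which feeds RNA making, fell in 5 of 6 genes (median -1.48, -1.01 under total-signal scaling). They were IMD4 (-2.43), GUA1 (-2.28), IMD3 (-1.58), GUK1 (-1.37) and IMD2 (-0.75), and the salvage gene HPT1, at 0.07, did not pass.

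**Figure D2:**
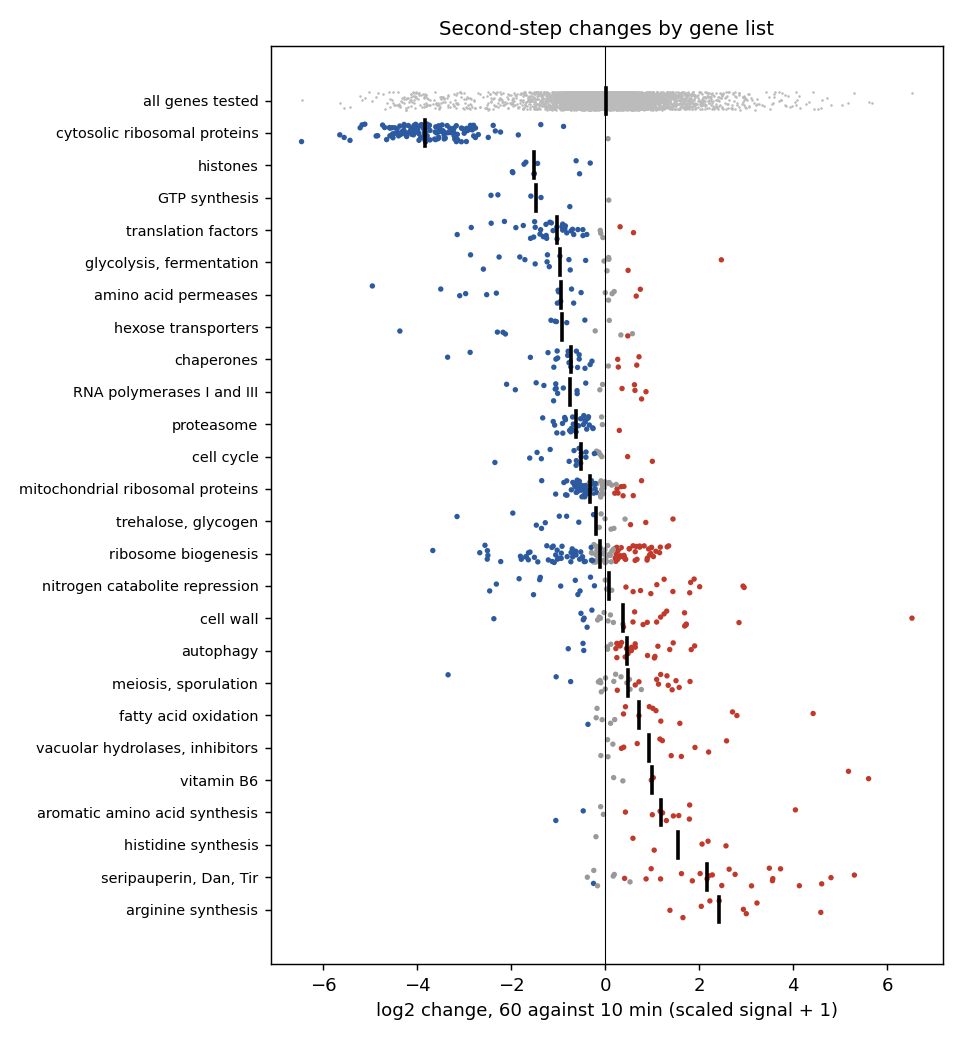
Log2 change from 10 to 60 min (x axis) of the members of 25 gene lists and of all genes tested. Each point is a gene, red where it rose and blue where it fell in limma's test, and black bars are medians, from -3.83 for ribosomal proteins to 2.42 for arginine synthesis.

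Histone transcripts, made mainly in S phase, were level through the first 10 min and lower at 60 min. All 10 genes fell, 7 of them late only, with a median of -1.51 after a first step of 0.04. Under total-signal scaling 7 fell and the median was -1.05. HTA2, an H2A gene, gave 2848 and 3060 untreated, 3562 and 2739 at 10 min and 772 and 815 at 60 min, a late change of -1.98 (SE 0.125, limma adjusted p = 5.71e-06), with the 60 min libraries below all others. The H3 gene HHT1 (-1.97), the H4 genes HHF1 (-1.73) and HHF2 (-1.51), the H2B gene HTB2 (-1.69), the variant H2A.Z gene HTZ1 (-1.52) and HTA1 (-1.44) were the other late-only falls. HTB1 (-0.62), the linker histone gene HHO1 (-0.55) and HHT2 (-0.32) fell by less, and total-signal scaling ended these 3 calls and turned HHT2 to 0.14. The paired copies of H2A, H3 and H4 are near-identical in sequence, so the split between them is uncertain.

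Of 23 cell cycle genes 17 fell and 2 rose (median -0.52). Under total-signal scaling 6 fell, 8 rose and the median was -0.05. CLB6, an S phase cyclin gene, gave 47.8 and 49.5 untreated, 39.7 and 48.4 at 10 min and 8.22 and 7.41 at 60 min, a late change of -2.35. CLB1, a mitotic cyclin gene, had been up at 10 min (0.58) and then changed by -1.61, and ASH1, a daughter-cell repressor gene, rose from 285 and 257 to 535 and 549 (1.00). In cultures of dividing cells, fewer cells in a stage and less transcript per cell cannot be told apart.

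Most genes for the use of glucose fell. Of 19 genes of glycolysis and fermentation 13 fell and 2 rose, 9 of the falls and 1 of the rises late only, with a median of -0.96 (-0.50 under total-signal scaling) after a first step of -0.07. Under total-signal scaling 12 fell, 6 of them late only, and 0 rises were late only. TDH2, for a glyceraldehyde-3-phosphate dehydrogenase with a near-identical copy, TDH3, gave 19892 and 15728 untreated, 13873 and 13171 at 10 min and 1797 and 1912 at 60 min, a late change of -2.87 (SE 0.128, limma adjusted p = 8.01e-07). HXK2, the main hexokinase gene of cells in glucose, went from 3829 and 3326 to 779.8 and 711 (-2.26). The riser was PDC6, a minor pyruvate decarboxylase gene, from 1.92 and 2.55 to 18.3 and 15.5, a low signal at which the pseudocount of 1 makes its log2 change of 2.47 an understatement.

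Of 14 hexose transporter genes 9 fell and 1 rose (median -0.93, -0.52 under total-signal scaling). Several had a low signal, and the median was -0.30 with a pseudocount of 10 and -1.64 over the members with a mean of at least 10. HXT2, a high-affinity transporter gene, gave 1164 and 908 untreated, 1062 and 752 at 10 min and 50.7 and 35.2 at 60 min, a late change of -4.37 (SE 0.216, limma adjusted p = 1.42e-06). The 60 min libraries were the lowest, and the SE was larger than the median of 0.089 over all genes. HXT1, a low-affinity transporter gene, had fallen before (-1.61) and changed by a further -1.16, and the glucose sensor gene RGT2 rose by 0.48.

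Amino acid permease genes were mostly lower at 60 min. Of 19 permease genes 13 fell and 2 rose, with a median of -0.95 (-0.48 under total-signal scaling) after a first step of 0.56. MUP1, the high-affinity methionine permease gene, gave 171 and 230.2 untreated, 315 and 279 at 10 min and 8.42 and 8.74 at 60 min, a late change of -4.96 (SE 0.136, limma adjusted p = 6.15e-08). TAT1, for tyrosine and branched-chain amino acids, gave 429 and 483 untreated, 488 and 442 at 10 min and 42.8 and 37.7 at 60 min, a late change of -3.50. Both stood near or above their untreated level at 10 min and below it at 60 min, and the histidine permease gene HIP1 went the other way, at -1.28 and then 0.75.

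Protein folding and breakdown genes were lower at 60 min than at 10 min. Of 33 proteasome genes 30 fell and 1 rose, 4 of the falls late only, with a median of -0.63. Under total-signal scaling 15 fell, 5 rose, 0 were late only and the median was -0.17. PRE2, for a catalytic subunit, gave 970.4 and 971 untreated, 1113 and 1012 at 10 min and 438 and 406 at 60 min, a late change of -1.33 (SE 0.0780, limma adjusted p = 3.62e-06), and RPN10, for a ubiquitin receptor, changed by -1.11. SEM1, a small subunit of the lid, was the one that rose (0.30). Of 25 chaperone genes 20 fell and 4 rose (median -0.73, -0.27 under total-signal scaling), and the ribosome-bound chaperone genes SSB1 (-3.35) and SSB2 (-2.88), near-identical to each other, fell most, whereas SSE2 rose by 0.72.

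**Figure D3:**
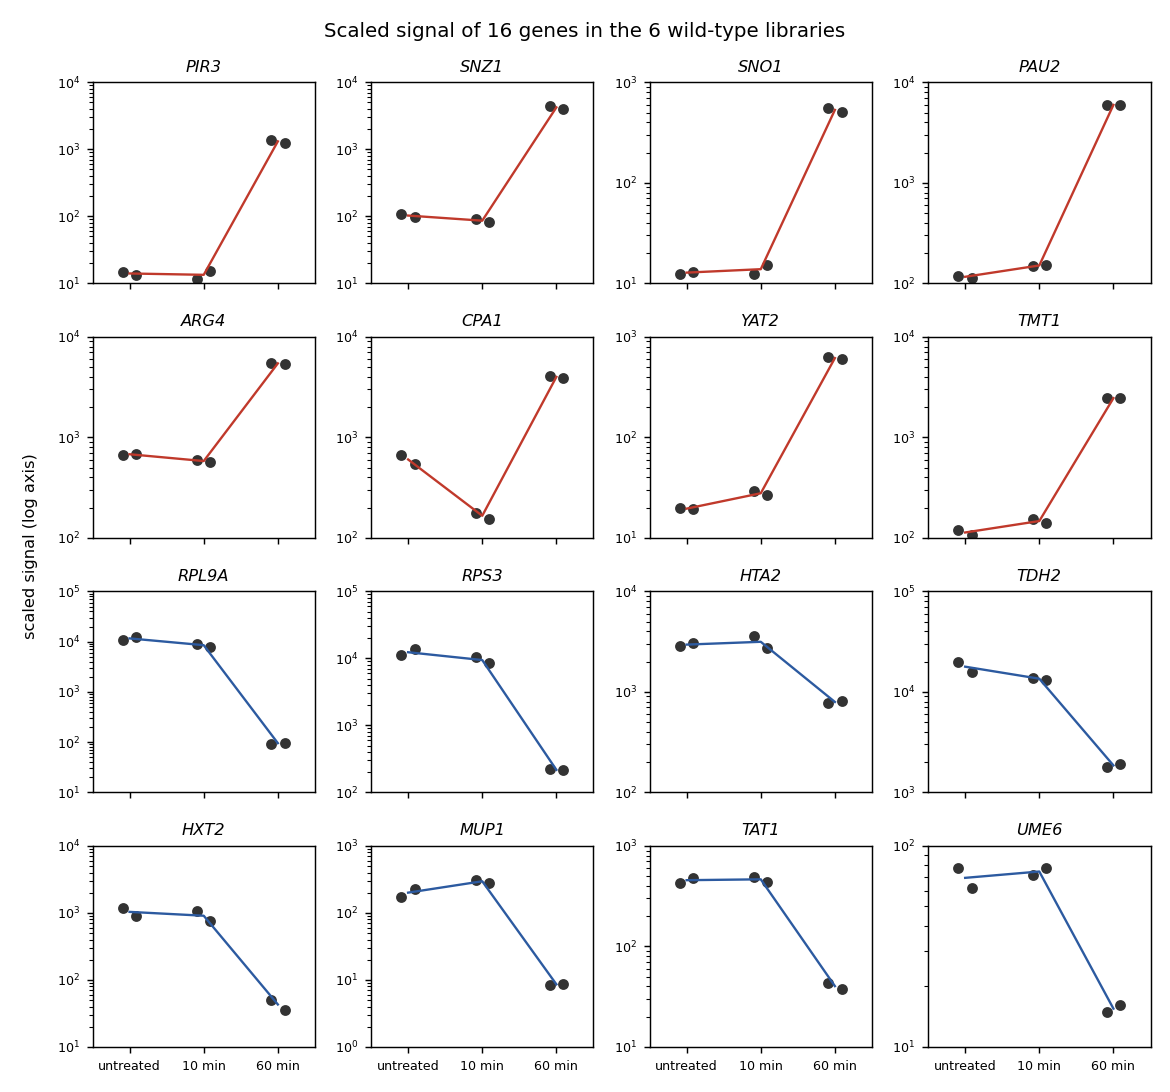
Scaled signal (log axis, a range of its own for each gene) of 16 genes in the 2 untreated, 2 10 min and 2 60 min libraries. Points are libraries and lines join group means, red where the 60 min mean was above the 10 min mean and blue where it was below, as for RPL9A and UME6.

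Vitamin B6 genes were among the steepest late rises. SNZ1 and SNO1 encode the partner proteins of pyridoxal phosphate synthesis and lie side by side on chromosome XIII, transcribed away from each other. SNZ1 (chromosome XIII, 458408 to 459301) gave 109 and 96.5 untreated, 90.2 and 81.8 at 10 min and 4472 and 3985 at 60 min, a late change of 5.60 (SE 0.0930, limma adjusted p = 2.21e-08). SNO1 (chromosome XIII, 457285 to 457959) gave 12.4 and 13.1 untreated, 12.4 and 15.2 at 10 min and 556 and 508 at 60 min, a late change of 5.17 (SE 0.110, limma adjusted p = 2.56e-08). In both genes the 4 earlier libraries lay close together and the 60 min libraries far above. The homologues SNZ2 (1.02) and SNZ3 (0.98) rose by about 2-fold, with reads that may be shared between them, and SNO3 (0.37) and SNO2 (0.18) did not pass. Of 15 thiamine genes 11 rose and 2 fell (median 0.70), led by THI12 (1.76) and THI11 (1.59), copies of one precursor synthesis gene that cannot be separated with certainty, while the thiamine-repressed acid phosphatase gene PHO3 changed by -2.42.

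Most genes for making amino acids rose, after a first step that had been downward in the median. Of the 84 genes listed 52 rose and 18 fell, 22 and 5 of them late only. The median was 0.67 (1.13 under total-signal scaling) after -0.28 in the first 10 min. The 84 include the whole aromatic list and with it ARO9, a riser whose enzyme is used to break down aromatic amino acids. The parts differed. Of 9 glutamate, proline and asparagine genes 3 rose and 4 fell (5 and 2 under total-signal scaling), after a first-step median of 0.37. Of 12 threonine, serine and glycine genes 6 rose and 3 fell, and sulfur genes had a first-step median of 0.07. All 9 arginine synthesis genes rose, with a median of 2.42. ARG4, for argininosuccinate lyase (chromosome VIII, 140011 to 141402), gave 668 and 689 untreated, 591 and 570.2 at 10 min and 5548 and 5348 at 60 min, a late change of 3.23 (SE 0.0700, limma adjusted p = 2.73e-08). CPA1, for the small subunit of carbamoyl phosphate synthase, gave 660.2 and 544 untreated, 177 and 155 at 10 min and 4073 and 3917 at 60 min, so that it fell and then rose past its untreated level, with a late change of 4.59 (SE 0.109, limma adjusted p = 3.72e-08). Further members rose by 3.0 (ARG3), 2.42 (ARG2), 2.23 (ARG7), 2.04 (ARG5,6), 1.65 (ARG8) and 1.38 (ARG1), and of the 9, ARG4, ARG7 and ARG1 met the late-only rule, the other 6 having fallen by more than 0.5 before. Under total-signal scaling 6 of the 9 met it.

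Stretches before the start codons are shown for 3 of the late risers that hold the letters TGACTC, the core of the site bound by Gcn4, the activator of amino acid synthesis genes, and for PIR3, the steepest late-only riser, which has none. They were chosen after the values were seen, run 5′ to 3′ on the coding strand, are 200 bases long, end 100 bases before the start codon and have TGACTC, or its reverse complement, in capitals. Coordinates are of the sacCer3 build.
SNZ1, chrXIII:458108-458307, plus strand: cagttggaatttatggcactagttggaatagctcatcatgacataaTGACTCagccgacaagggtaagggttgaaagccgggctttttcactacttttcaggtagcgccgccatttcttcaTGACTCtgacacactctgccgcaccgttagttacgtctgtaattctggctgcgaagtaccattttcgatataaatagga
ARG4, chrVIII:141503-141702, minus strand: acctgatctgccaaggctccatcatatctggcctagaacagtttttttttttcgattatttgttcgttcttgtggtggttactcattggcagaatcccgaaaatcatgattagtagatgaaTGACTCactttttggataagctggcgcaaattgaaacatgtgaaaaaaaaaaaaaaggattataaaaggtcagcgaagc
TMT1, chrV:540464-540663, minus strand: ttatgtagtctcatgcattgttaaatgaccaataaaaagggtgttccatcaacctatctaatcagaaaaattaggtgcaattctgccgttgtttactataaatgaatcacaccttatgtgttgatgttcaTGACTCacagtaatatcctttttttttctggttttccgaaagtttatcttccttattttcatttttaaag
PIR3, chrXI:144101-144300, plus strand: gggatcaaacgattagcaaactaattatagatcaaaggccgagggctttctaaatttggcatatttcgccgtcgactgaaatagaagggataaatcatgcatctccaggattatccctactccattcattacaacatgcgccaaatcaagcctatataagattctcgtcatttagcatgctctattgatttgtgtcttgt
The letters begin 254 and 179 bases before the start codon of SNZ1, and the same pair of matches falls into the upstream window of SNO1, since the genes share their intergenic region. The window of SNO1 holds 3 matches, the nearest 149 bases before its start codon. In ARG4 the letters begin 179 bases and in TMT1, for a methyltransferase that acts on trans-aconitate, 170 bases before the start codon.

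Counted over all genes with a window, TGACTC on either strand was present in the 300 bases before the start codon of 444 of 5640 genes (7.9%). It was present in 58 of 279 late-only risers (20.8%), in 9 of 217 late-only fallers (4.1%), in 44 of 83 amino acid synthesis genes (53.0%) and in 8 of 9 arginine genes. Of the late-only risers outside the amino acid list 46 of 257 held it (17.9%). The letters AGGGG of the stress element were in 22.4% of all windows and 20.8% of late-only risers, GATAAG of the nitrogen GATA factors in 14.9% and 18.6%, and GATGAG of ribosome assembly promoters in 19.1% and 16.5%. AAAATTTT, the other element of ribosome assembly promoters, was in 9.7% of all windows, 3.2% of late-only risers and 7.8% of late-only fallers. These are descriptions of letters in a window, searched on both strands, and matches to different motifs may overlap.

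Histidine synthesis rose in 5 of 6 genes (median 1.55), from HIS5 (2.57) over HIS4 (2.19), HIS7 (2.06) and HIS2 (1.04) to HIS1 (0.59), and HIS6, at -0.20, did not pass. Under total-signal scaling HIS6 turned to 0.26 and passed. Lysine synthesis rose in 6 of 7 genes (median 0.61), with LYS1, for the last enzyme of the path, at 2.42, LYS2 at 1.68, LYS21 at 1.01, LYS20 at 0.61, LYS4 at 0.55 and LYS9 at 0.27, and LYS12, at 0.07, did not pass. In aromatic amino acid metabolism 10 of 14 genes rose and 2 fell (median 1.19), 8 of the rises late only. ARO9, for an aromatic aminotransferase used to break down these amino acids, gave 97.0 and 106 untreated, 144 and 147 at 10 min and 2386 and 2447 at 60 min, a late change of 4.05 (SE 0.0710, limma adjusted p = 2.21e-08). ARO1, for the multi-step enzyme of the shikimate path, rose by 1.80, and ARO4, for one of the enzymes that start that path, fell (-1.05).

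Branched-chain and sulfur amino acid genes did not move as one. In the branched-chain list 5 genes rose and 5 fell (median 0.15). LEU4, which starts leucine synthesis, went from 877 and 822 to 2605 and 2417 (1.56), and LEU1, the next enzyme, from 1269 and 1269 to 172 and 159.6 (-2.93, SE 0.0710, limma adjusted p = 3.85e-08). LEU9, the paralogue of LEU4, fell (-1.73). Of the aminotransferases, the cytosolic BAT2 rose by 0.91 and the mitochondrial BAT1 changed by -1.81. ILV2 (0.90), ILV6 (0.76) and ILV1 (0.61) rose, and ILV5 (-0.50) and ILV3 (-0.31) fell, of which total-signal scaling ended the call of ILV5 (-0.04) and turned ILV3 to 0.15. Of 19 sulfur genes 9 rose and 4 fell, with STR2, for cystathionine gamma-synthase, at 2.57, and CYS4, for cystathionine beta-synthase on the route from homocysteine to cysteine, from 1681 and 1566 to 373 and 347 (-2.17). Both were late only.

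Cell wall and seripauperin genes were among the steep late rises. PIR3, for a protein linked to beta-glucan in the wall (chromosome XI, 144401 to 145378), gave 14.5 and 13.5 untreated, 11.6 and 15.1 at 10 min and 1378 and 1251 at 60 min, a 98.3-fold rise and a late change of 6.53 (SE 0.123, limma adjusted p = 2.21e-08). Of its family, HSP150 rose (1.69), while PIR1 (-0.11) and CIS3 (-0.03) did not pass, these 3 being named after their values were seen. Total-signal scaling turned PIR1 to 0.35 and CIS3 to 0.44, and both then passed as rises. Of 30 cell wall genes 15 rose and 6 fell, 9 and 1 of them late only, with a median of 0.38. GAS3, of a family that remodels glucan, was the fall among the late-only ones, from 279.9 and 259.9 to 50.7 and 52.1 (-2.37).

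Seripauperins, small proteins of the wall with no settled function, are encoded by a family spread over the chromosome ends. Of 29 PAU, DAN and TIR genes 22 rose and 1 fell, 12 of the rises late only, with a median of 2.17 (2.60 under total-signal scaling) after 0.11 before. PAU2 (chromosome V, 63728 to 64090) gave 119 and 113 untreated, 150.0 and 151 at 10 min and 5930 and 5994 at 60 min, a late change of 5.30 (SE 0.0650, limma adjusted p = 1.68e-08). PAU24 gave 48.3 and 48.9 at 10 min and 1254 and 1526 at 60 min (4.80) and PAU17 44.3 and 55.8 at 10 min and 872 and 901 at 60 min (4.13). DAN1, for a mannoprotein of cells without oxygen, fell by little (-0.25), and total-signal scaling turned that to 0.22. Most PAU genes have a copy of at least 90% identity, so which of them were transcribed is uncertain, and with a pseudocount of 10 the list's median was 1.17, since many members had a low signal.

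Acetyl group transport and fatty acid breakdown rose in part. YAT2, for a carnitine acetyltransferase (chromosome V, 202192 to 204963), gave 19.6 and 19.4 untreated, 29.0 and 26.5 at 10 min and 623 and 607 at 60 min, a late change of 4.42 (SE 0.0750, limma adjusted p = 2.21e-08), and YAT1, of the same activity at the mitochondrion, rose by 2.71. Both were late only. Of the 17 genes of fatty acid oxidation 11 rose and 1 fell (median 0.72, or 0.33 with a pseudocount of 10), the fall being that of the isomerase gene ECI1 (-0.37, turned to 0.09 by total-signal scaling).

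Genes of breakdown in the vacuole rose. Of 14 genes for vacuolar hydrolases, their inhibitors and sorting 10 rose and 0 fell (median 0.92), 0 of them late only. Over all genes 35.4% rose, 33.8% fell and 5.11% were late-only risers. PAI3, an inhibitor of the vacuolar proteinase A, went from 76.3 and 79.7 to 469 and 475 (2.58), and LAP4, the aminopeptidase carried to the vacuole by an autophagy-related route, from 477 and 458 to 1773 and 1746 (1.91), after first steps of 0.72 and 1.85. Of 28 autophagy genes 22 rose and 3 fell (median 0.47). ATG8, for the protein on the autophagosome membrane, was on the rise in both steps (1.56 and 1.83). ATG32, the receptor for breaking down mitochondria, was level in the first 10 min and then rose: it gave 28.9 and 29.0 untreated, 31.5 and 28.6 at 10 min and 115 and 115 at 60 min, a late change of 1.90 (SE 0.0810, limma adjusted p = 6.42e-07). ATG5 was among the falls (-0.79).

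Meiosis genes moved at low signal. Of 28 tested 12 rose and 3 fell, 7 and 1 of them late only, with a median of 0.49, or 0.22 over the members with a mean of at least 10. REC8, for the meiotic cohesin, rose from 4.09 and 2.84 to 15.8 and 13.2 and SPO1, for a phospholipase-like protein of spindle pole duplication, from 10.0 and 10.8 to 33.0 and 33.1. UME6, which represses early meiotic genes in growing cells, fell over the same interval (-2.20).

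Several genes reversed after 10 min. They had a called first step of at least 2-fold and a called second step the opposite way, and those with the largest second steps were listed. This is a description because both steps use the 10 min libraries. YOR302W, the short reading frame in the leader of CPA1's transcript, changed by -1.99 and then by 4.71, close to CPA1 itself (-1.85 and 4.59). MCH5, for a riboflavin transporter, gave 87.3 and 88.0 untreated, 40.1 and 35.7 at 10 min and 649.9 and 567 at 60 min. TEA1, for a Ty1 activator, gave 98.1 and 93.3 untreated, 29.0 and 27.7 at 10 min and 360.0 and 343 at 60 min, and ICY2 (-1.43 and 3.75) and YOR338W (-1.75 and 3.18) also went down and then up. In the other direction, OPT1, for an oligopeptide and glutathione transporter, gave 79.4 and 91.5 untreated, 176 and 174 at 10 min and 7.94 and 10.3 at 60 min. HXK1, for a hexokinase of cells short of glucose, gave 53.3 and 56.5 untreated, 834 and 623 at 10 min and 95.3 and 84.5 at 60 min, which returned most of the way to the untreated level. GSY1 of glycogen synthesis (3.47 and -3.15), SPS4 (1.79 and -3.34), the sodium pump gene ENA1, near-identical to ENA2 (2.00 and -2.66), and DUR1,2 of urea breakdown (5.21 and -2.46) were the others.

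Groups whose members had moved in the first 10 min split after it. In the nitrogen catabolite repression list, at 2.80 in the first step, 13 of 28 genes rose after it (46.4%) and 12 fell (42.9%), with a median of 0.08. Over all genes 35.4% rose and 33.8% fell. Late only was 1 of the risers, against 5.11% of all genes, and under total-signal scaling 0 were. It was the asparaginase gene ASP3-1, named after its values were seen, which went from 461 and 440.3 to 1581 and 1599 (1.82) and has an identical copy. DAL5, for an allantoate permease, rose from 173 and 161 to 1353 and 1252 (2.96) and UGA2, of GABA breakdown, from 142 and 126 to 991 and 1062 (2.93), while DUR1,2 fell to 154 and 156 from 886 and 825. In the general stress list 20 of 42 rose and 16 fell (median 0.38 after 1.45), from HSP12, a membrane-protecting protein gene (2.61), ALD3 (2.10) and the trehalase gene NTH1 (1.44) to TSL1 of trehalose synthesis (-1.97) and HXK1 (-2.99). Leaving out 1 library moved the stress median between 0.15 (10 min library 25) and 0.50 (10 min library 22). In trehalose and glycogen metabolism 3 of 18 rose and 9 fell, with a median of -0.19 that total-signal scaling turned to 0.27, and that was -0.33 without 10 min library 25. Adenine synthesis, down in the first step (-0.78), rose in 10 of 12 genes and fell in 2 (median 0.71), with ADE17 at 1.48 and ADE3 at 0.94, and ADE5,7 at -0.46, or 0.00 under total-signal scaling.

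Genes for regulators changed in both directions. Of 53 transcription regulator genes 31 rose (58.5%) and 11 fell (20.8%), with a median of 0.41. Over all genes 35.4% rose and 33.8% fell. Late only were 5 rises and 2 falls (10 and 1 under total-signal scaling), against 5.11% and 3.90% of all genes. GLN3, for a GATA activator of nitrogen genes, gave 69.8 and 65.4 untreated, 57.6 and 60.6 at 10 min and 189.9 and 192 at 60 min, a late change of 1.67 (SE 0.0710, limma adjusted p = 6.44e-07). RLM1, for the factor at the end of the cell wall integrity pathway, gave 108 and 84.2 untreated, 78.5 and 71.7 at 10 min and 291 and 304 at 60 min, a late change of 1.97 (SE 0.118, limma adjusted p = 4.04e-06). LYS14, for the activator of lysine genes (1.62), DAL82 of the allantoin pathway (1.18) and PHO4 of phosphate uptake (1.00) were also late only. UME6 fell late only, with 77.2 and 61.5 untreated, 71.8 and 77.4 at 10 min and 14.9 and 16.1 at 60 min and a late change of -2.20 (SE 0.119, limma adjusted p = 2.34e-06), and so did MET32 of the sulfur pathway (-1.03). The transcript of GCN4, the activator of amino acid synthesis genes, rose from 3242 and 2928 to 4793 and 4512 (0.59). Its protein, set mainly by translation, was not measured.

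Further rises of at least 2-fold were those of SIP4 (2.63), MET28 (2.23), BAS1 of the adenine and histidine paths (2.17), DAL80 (1.89), ARG80 (1.86), NRG1 (1.46), RPH1 (1.28), the stress factor gene MSN4 (1.25), AFT2 (1.17) and PIP2 (1.14). Of these, BAS1, ARG80, RPH1 and AFT2 had been lower at 10 min than in untreated cells and the rest higher. Smaller rises were found for RTG3 (0.95), MET4 (0.94), XBP1 (0.89), URE2 (0.81), RPN4 (0.78), ARG81 (0.74), SKN7 (0.54), GZF3 (0.44), LEU3 (0.44), MIG3 (0.42), INO4 (0.41), HSF1 (0.39), RGT1 (0.31), CRZ1 (0.25) and DAL81 (0.21). The other falls were those of ADR1 (-1.73) and GAT1 (-1.53), both raised in the first step, and of GIS1 (-0.88), UPC2 (-0.81), OPI1 (-0.71), HAP4 (-0.65), MIG1 (-0.40), PHO2 (-0.30) and ECM22 (-0.23). Total-signal scaling ended the fall of HAP4 and turned those of MIG1 (0.06), PHO2 (0.16) and ECM22 (0.23).

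Among 19 genes for TORC1 and for regulators of ribosome production 9 rose and 3 fell (median 0.25). RAP1, for the factor that binds ribosomal protein promoters, fell late only: it gave 101 and 109 untreated, 80.8 and 90.6 at 10 min and 27.2 and 27.4 at 60 min, a late change of -1.61 (SE 0.0850, limma adjusted p = 2.11e-06). TOD6, for a repressor of ribosome assembly genes, had dropped in the first 10 min and recovered in part, with 233 and 204 untreated, 6.03 and 5.80 at 10 min and 58.9 and 46.6 at 60 min. IFH1, for the coactivator at ribosomal protein promoters, went up by 1.63 over the same interval. Smaller rises were found for SCH9 (0.54), TOR1 (0.46), NPR1 (0.39), SFP1 (0.36), TCO89 (0.33), TAP42 (0.27) and KOG1 (0.25), and falls for HMO1 (-0.67) and SIT4 (-0.34). Total-signal scaling ended the call of HMO1 and turned SIT4 to 0.12.

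**Figure D4:**
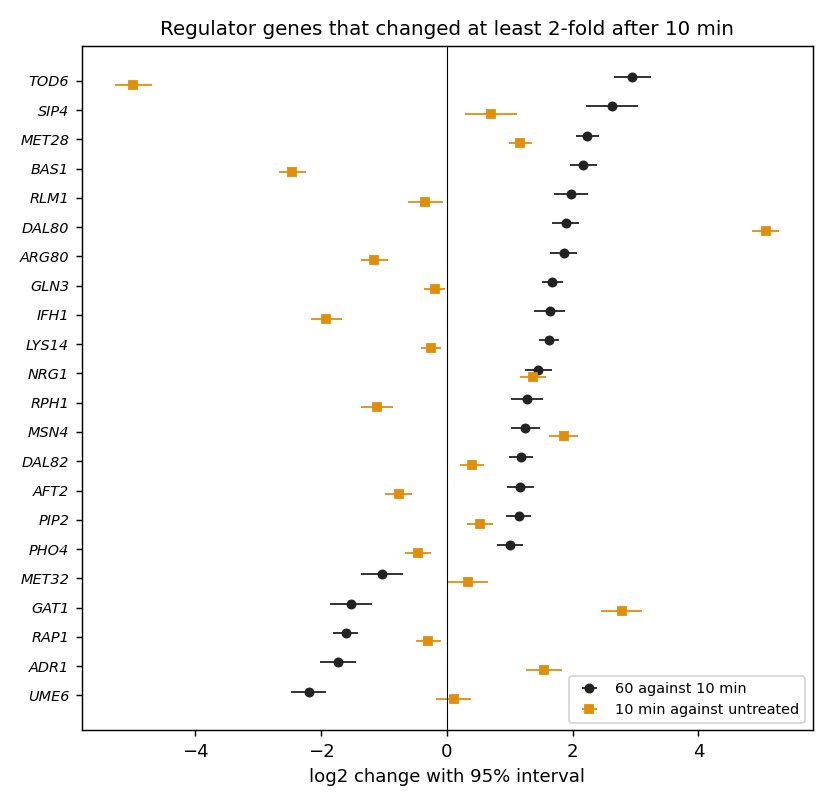
Log2 changes with 95% intervals (x axis) of the 22 regulator genes that changed at least 2-fold from 10 to 60 min (17 higher, 5 lower), with the first step as squares. GLN3, RLM1, LYS14, RAP1 and UME6 moved by less than 0.5 first, while TOD6, BAS1 and IFH1 rose after a fall and GAT1 and ADR1 fell after a rise.

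The remaining largest late-only rises were in none of the lists. SHH3 (YMR118C), a paralogue of a succinate dehydrogenase subunit, gave 1.62 and 2.40 untreated, 2.65 and 1.49 at 10 min and 158 and 147 at 60 min, so low before that its late change of 5.67 understates the fold. TMT1 gave 119 and 107 untreated, 153 and 141 at 10 min and 2470 and 2441 at 60 min, a late change of 4.06 (SE 0.0790, limma adjusted p = 2.21e-08). YPL088W gave 152 and 127 at 10 min and 2856 and 2847 at 60 min (4.34) and YNR065C gave 28.5 and 27.5 at 10 min and 482 and 493 at 60 min (4.07). YNR065C has a near-identical copy, VTH2 (91.5% identity), so the split of reads between them is uncertain. YHR022C, which overlaps the gene ECM12, gave 15.5 and 14.0 at 10 min and 284 and 270.2 at 60 min (4.14). ECM12 itself gave 3.34 and 2.47 at 10 min and 2.09 and 0.888 at 60 min on the other strand.

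Position and structure of the late-only genes are given as a description. Within 30 kb of a chromosome end lay 36 of the 313 risers (11.5%) and 8 of the 239 fallers (3.35%), against 6.07% of all genes tested. An intron was present in 45 of the fallers (18.83%) and 10 of the risers (3.19%), against 4.54% of all genes, and in 5.91% of the fallers that are not ribosomal protein genes. A copy of at least 90% identity was found for 9.58% of risers and 9.62% of fallers, against 4.19%. The search aligned whole gene spans, introns included, so copies of genes with introns could be missed. Introns were more frequent among the fallers, so these shares cannot be compared between risers and fallers. Lists held 89 of the 313 risers and 124 of the 239 fallers, against 1395 of all 6127 genes tested. Just inside the limit on the first step were FMP46 (0.49, then 1.14), PAU4 (-0.49, then 2.76), FRS2 (-0.49, then -1.48) and YBR184W (0.50, then -1.75). Just outside it were PSK2 (-0.50, then 1.46), RAD55 (-0.51, then 2.26) and RPL1A (-0.50, then -3.21).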

How the data were processed

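Per the labels, poly(A) RNA was made into strand-specific libraries, and the submitters' processing notes name TopHat, Bowtie and the sacCer3 build, with tool versions not given in the sources used here. The authors deposited a table of signal per gene for 6569 genes, scaled between libraries in a way that is not stated. How reads were summed over a gene, whether strand was used and how reads of near-identical copies were treated are not given in the sources used here. Size factors by median of ratios over these values lay within 0.407% of 1. Strands and introns came from gene models that the authors deposited (other: exon starts and ends). Another 10 per-sample columns were not used.

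Columns were put into groups by their names, which carry library numbers. The test was limma's (version 3.58.1, under R 4.3.3) with a variance trend on intensity, run on log2 of scaled signal plus 1 for 6127 genes, with all 6 wild-type libraries in one fit by group. A call needed an adjusted p under 0.05 (Benjamini-Hochberg, over all genes tested). Log2 changes are on the scale of signal plus 1, which understates changes of low genes. The fit was tested on simulated data. Alternatives were pseudocounts of 0.1 and 10, no filter or a minimum of 10, total-signal and median-of-ratios scaling, no trend, fewer libraries, and other limits of the late-only rule. A group left with 1 library was assumed to vary like the others. The labels call the libraries biological replicates without saying how cultures were separated, so p-values measure the spread between these libraries.

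The members and the gene lists were chosen with earlier results of these data known. The named genes are the 12 largest late-only rises and falls with a mean of at least 10, in each list those of smallest p and of largest called rise and fall, every member of lists of up to 10 genes, called regulators, the 6 largest reversals each way, and genes next to the limit on the first step, of which a few are not reported here. Near-identical copies were found with BLAST 2.17.0 (at least 90% identity over at least 80% of the length). Whole gene spans were aligned, introns included, and a single alignment had to reach that length, so copies of genes with introns could be missed. Of 5871 gene names matched to the RefSeq R64 annotation, 98.3% had the same coordinates, and sequences were read from that genome, which is the sacCer3 build. Windows of 300 bases before the start codon were used for 5640 genes, and 99.9% of them were followed by ATG.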

Additional observations from a re-analysis of the deposited data

How the results depend on the processing

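No paired analysis was possible because the columns carry library numbers but no replicate number. Of the 231 genes named, 196 kept their direction and their side of the threshold under each of the 14 alternatives that tested them, and total-signal scaling, which turned 12, ended 7 calls and added 5, left 207 as they were. It ended the calls of FAS1, HAP4, HHO1, HMO1, HTB1, ILV5 and IMD2 and added those of HPT1, LYS12, RPL15B, SNO2 and SNO3. Depth is unknown, so low signals are the least certain, and 2 libraries a group could not reach p = 0.05 in a permutation test.

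Total-signal scaling gave 3775 higher and 908 lower genes and 637 late-only risers, of which 237 were among the 313. It turned the medians of genes with introns outside the ribosomal proteins (0.298), mitochondrial ribosomal proteins (0.130), ribosome biogenesis (0.341) and trehalose and glycogen (0.273), and the genes ADE5,7 (0.001), CIS3 (0.440), DAN1 (0.215), ECI1 (0.090), ECM22 (0.226), HHT2 (0.145), HIS6 (0.260), ILV3 (0.153), MIG1 (0.061), PHO2 (0.158), PIR1 (0.354) and SIT4 (0.120). It moved the other list medians without turning them, to 1.171 (adenine), 1.132 (amino acid synthesis), -0.483 (amino acid permeases), 2.886 (arginine), 1.657 (aromatic), 0.925 (autophagy), 0.614 (branched-chain), -0.053 (cell cycle), 0.848 (cell wall), -0.269 (chaperones), 1.167 (fatty acid oxidation), 0.846 (general stress), -0.50 (glycolysis), 0.701 (TORC1 and ribosome regulators), -1.011 (GTP synthesis), -0.517 (hexose transporters), 2.014 (histidine), -1.048 (histones), 1.080 (lysine), 0.916 (meiosis), 0.548 (nitrogen catabolite repression), 2.598 (PAU, DAN and TIR), -0.165 (proteasome), -3.364 (ribosomal proteins), -0.285 (RNA polymerases), 0.656 (sulfur), 1.161 (thiamine), 0.877 (transcription regulators), -0.565 (translation factors), -0.039 (tRNA synthetases), 1.386 (vacuole) and 1.461 (vitamin B6). The sums of scaled signal fell with the group, and by construction this setting adds nearly the same shift to every gene.

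Other limits gave 159 late-only risers and 115 fallers for a first step under 0.25, 577 and 551 for a 1.5-fold late change, and 147 fallers, 140 of them among the 239, where the first step had only to miss its test. A pseudocount of 10 moved medians to 0.609 (amino acid synthesis), -0.668 (permeases), 2.195 (arginine), 1.159 (aromatic), 0.386 (autophagy), 0.325 (fatty acid oxidation), -0.304 (hexose transporters), 1.511 (histidine), 0.229 (meiosis), 1.167 (PAU, DAN and TIR), 0.495 (thiamine), 0.361 (transcription regulators) and 0.889 (vitamin B6), and one of 0.1 moved PAU, DAN and TIR to 2.391. A minimum of 10, which tests fewer genes, gave -1.640 (hexose transporters), -0.169 (genes with introns outside the ribosomal proteins), 0.219 (meiosis) and 2.457 (PAU, DAN and TIR).

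Leaving out each library in turn gave 1794 to 2330 genes higher, 1722 to 2237 lower, 259 to 317 late-only risers and 214 to 252 fallers. Medians ranged from 0.644 to 0.725 (amino acid synthesis), 2.372 to 2.477 (arginine), 1.157 to 1.228 (aromatic), -0.606 to -0.424 (cell cycle), -0.764 to -0.678 (chaperones), 0.155 to 0.498 (general stress), -0.173 to -0.130 (genes with introns outside the ribosomal proteins), -0.376 to -0.328 (mitochondrial ribosomal proteins), 2.005 to 2.168 (PAU, DAN and TIR), -0.674 to -0.584 (proteasome), -0.164 to -0.011 (ribosome biogenesis), 0.162 to 0.343 (sulfur), -0.333 to -0.133 (trehalose and glycogen) and 0.367 to 0.440 (transcription regulators). The calls of CRZ1, DAL81, DAN1, ECM22, HAP4, HHT2, ILV3, KOG1, LYS9, MIG3, PHO2, RGT1, RGT2, SEM1, TAP42 and TOR1 ended in at least 1 of these fits, which have fewer samples: 12 without library 22, 13 without 25, 7 without 23 and 15 without 26, and ECM12, HIS6 and SNO3 were called in some.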

Other observations

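Lists not described above held further late changes. MLS1, for malate synthase of the glyoxylate cycle, rose from 6.71 and 5.13 at 10 min to 163 and 149.8 at 60 min (log2 change 4.52, first step 0.97), while MDH2, for the cytosolic malate dehydrogenase, fell late only (-1.55). In the pentose phosphate list RKI1, for ribose-5-phosphate isomerase, fell from 175 and 182 to 9.90 and 7.91 (-4.19) but was not late only. NQM1, for a transaldolase, rose late only (2.78). Of 10 fatty acid synthesis genes 7 fell and 3 rose, and the fatty acid synthase subunits parted, with FAS2 late-only rising (1.03) and FAS1 at -0.58, the latter no longer called under total-signal scaling (-0.12). The elongase genes FEN1 (-2.04) and SUR4 (-1.95) and the acyl-CoA synthetase gene FAA4 (-1.62) fell. Of the 7 falls in the fatty acid synthesis list 1 was late only. The high-affinity iron oxidase gene FET3 went from 398 and 419 to 98.3 and 96.1 (-2.06, late only) and the heme oxygenase gene HMX1 from 56.9 and 53.5 to 245 and 240.0 (2.11). PHO89, for a sodium-phosphate cotransporter, fell (-3.52) but was not late only. The peroxiredoxin gene TSA2 rose from 557 and 506 to 4109 and 4013 (2.93), after a first step of 1.36. COX9, for a cytochrome c oxidase subunit, rose late only (1.42).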
